A study of Homo sapiens with 6 samples.

Results

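WNT pathway core and feedback genes were followed in HCT116 cells, a human colorectal carcinoma line, after transfection with a miR-8485 mimic. The set was fixed by gene symbol and held 10 genes, all found among the 58735 genes of the expression table. It comprised the effector CTNNB1, the destruction complex genes APC, AXIN1, GSK3A and GSK3B, the TCF factors TCF7, TCF7L2 and LEF1, and the feedback targets AXIN2 and RNF43. The study compared 3 control-transfected RNA-seq libraries (CTR) with 3 libraries of cells given 50 nM of the mimic (miR-8485). The general collection time in its methods is 48 h after mimic transfection, or times indicated, with none named for the RNA-seq. Such mimics are synthetic duplexes that stand in for a mature miRNA inside the cell. The genotype entry of the labels reads WT for CTR and names the mimics for miR-8485. Both groups were the same cell line, and the sequence and dose of the control RNA were not given in the sources used here.

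In the canonical WNT pathway, the destruction complex holds β-catenin, the product of CTNNB1, so that GSK3 kinases can phosphorylate it and mark it for degradation. When WNT ligands bind Frizzled and LRP receptors, this stops, and β-catenin enters the nucleus and activates genes with TCF/LEF factors. AXIN2 and RNF43 are such target genes and dampen the pathway in turn. Most colorectal carcinomas carry a mutation in this pathway, and HCT116 is known for a mutation in CTNNB1 that protects β-catenin from degradation. None of these protein events was measured here, only mRNA.

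The libraries held 17473874 to 18480047 fragments on listed genes. Levels are FPKM as deposited, that is fragments scaled to gene length and library size. They do not show a change of total RNA per cell. A comparison between genes depends on the length counted for each, among the members from 4126 bases for GSK3A to 12440 for APC. Whether these lengths match the transcripts present was not tested. In bulk RNA, fewer expressing cells and less RNA per cell cannot be told apart. Of the 8 epithelial markers checked, 6 were at a mean of at least 1 FPKM, among them EPCAM at 135 FPKM in CTR, while CDX1 and VIL1 were at or near 0. The summed level of these 8 was 2613 to 2838 FPKM in CTR and 1751 to 1838 FPKM in miR-8485, and KRT8, KRT18 and KRT19 fell while CDX2 rose. Blood cell and endothelial markers each summed to at most 0.677 FPKM in any library. Of 4 fibroblast markers, DCN was at 0 throughout and COL1A1 alone was above 1 FPKM, with a sum of 4.09 to 4.404 FPKM in CTR and 6.29 to 6.43 FPKM in miR-8485. The part of these markers in the results was not tested.

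GSK3B was the only member whose 3′ untranslated region (UTR) held the heptamer TGTGTGT, which pairs with the seed, bases 2 to 8, of the mimic sequence given in the study's methods. The study had already listed GSK3B as a miR-8485 target and reported its downregulation from these same libraries. Neither this match nor the fall of GSK3B given below is thus an independent finding. The 5467 bases after the stop codon of the canonical GSK3B transcript in GENCODE release 44 held 13 overlapping copies in 5 separate runs of alternating T and G. The other 9 members held 0 copies in canonical 3′ UTRs of 604 to 2113 bases. Their longest run of alternating T and G was 7 bases, in RNF43. Of the 10672 tested genes with an annotated 3′ UTR, 28.9% held at least 1 copy. The runs with more than 1 copy are shown because they make up most of the sites, with 8 copies in the longer run and 2 in the shorter. Capitals mark the alternating T and G, read on the minus strand of GRCh38. The longer run begins at base 2436 after the stop codon and the shorter at base 1891. The 30 bases shown for each lie at chr3:119824326-119824355 and chr3:119824878-119824907.
GSK3B longer run: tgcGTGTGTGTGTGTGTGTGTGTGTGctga
GSK3B shorter run: gctccttaacTGTGTGTGTGactctccaag

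Of the 10 members, 9 reached the mean of 1 FPKM required for the test and 6 of these changed in miR-8485. AXIN2, AXIN1 and TCF7L2 were upregulated, and GSK3B, CTNNB1 and TCF7 were downregulated. APC, GSK3A and RNF43 did not pass the threshold, and LEF1 was too low to test. Calls were made with limma on log2(FPKM + 0.1) at an adjusted p under 0.05, Benjamini-Hochberg adjusted over all 12349 tested genes. These shares lie near those of all tested genes, of which 59.6% were called, 29.1% upwards and 30.5% downwards. The changes of the members were small. Their median absolute log2 fold change was 0.20, against 0.33 for all tested genes, and the largest was 0.50. The signed median was -0.16 for the 9 members and -0.0041 for all tested genes. It was -0.02 for the members with the trend against gene length removed and -0.04 with the trend against GC content removed, so the distance from all genes was small on those scales. The libraries of the groups did not overlap for 7 of the 9 members and for 66.5% of all tested genes.

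**Figure D1:**
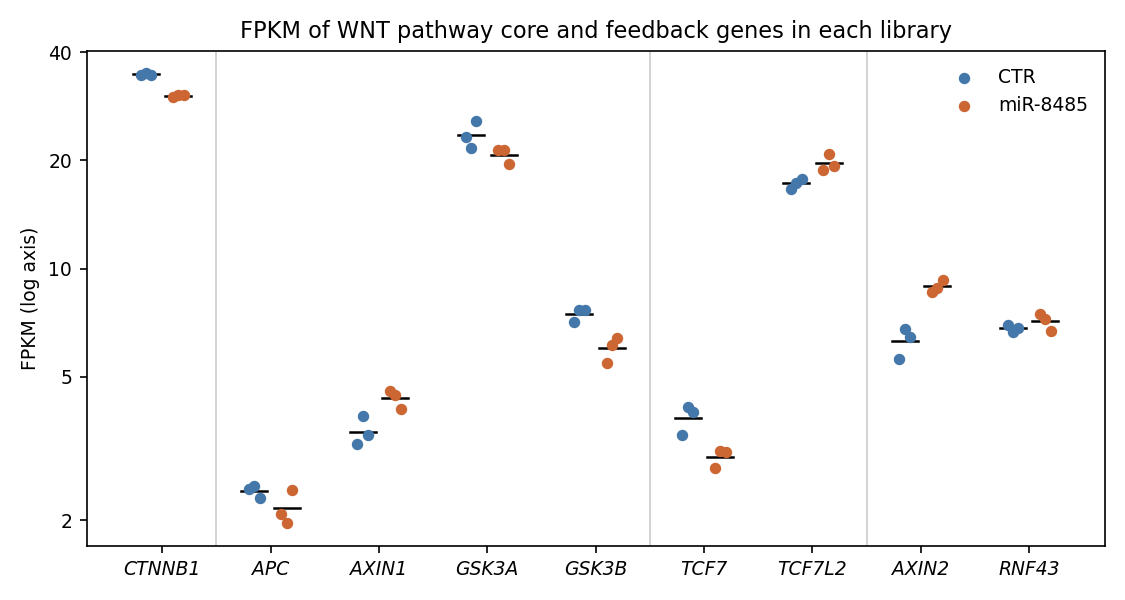
FPKM of the 9 tested members in each library on a log axis. Each point is 1 of 3 CTR (blue) or 3 miR-8485 (orange) libraries, black lines are group means, and grey lines divide effector, destruction complex, TCF factors and feedback targets. Only APC and RNF43 have overlapping groups, and CTNNB1 is highest in every library. LEF1 is left out because it had at most 1 fragment per library.

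AXIN2, a scaffold of the destruction complex and a direct target of β-catenin and TCF, showed the largest change of the members. The gene occupies chr17:65528563-65561647 of hg38, minus strand. Its level was 5.59, 6.80 and 6.44 FPKM in CTR replicates 1 to 3 and 8.63, 8.83 and 9.31 FPKM in miR-8485 replicates 1 to 3. Every miR-8485 library lay above every CTR library, with means of 6.28 ± 0.62 and 8.93 ± 0.351 FPKM (SD, n = 3). The log2 fold change was 0.50 (SE 0.08 and adjusted p = 0.0012 in limma with Benjamini-Hochberg adjustment), a rise of 41.9%. Leaving out each library in turn kept it between 0.43 and 0.56.

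RNF43, the other feedback target, encodes a ubiquitin ligase that removes Frizzled receptors from the cell surface. Its 3 CTR libraries had 6.95, 6.68 and 6.84 FPKM and its 3 miR-8485 libraries 7.46, 7.26 and 6.70 FPKM. The groups overlapped, since the third miR-8485 library lay among the CTR libraries. The log2 fold change of 0.06 had a 95% interval of -0.07 to 0.20 and was not past the threshold (limma adjusted p = 0.38). With FPKM rescaled to TPM, in which every library sums to the same total, the value was -0.051.

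AXIN1, the scaffold on which the destruction complex is built, rose less than AXIN2. Its libraries held 3.24, 3.88 and 3.44 FPKM in CTR and 4.57, 4.46 and 4.07 FPKM in miR-8485. The lowest miR-8485 library lay just above the highest CTR library, and the means were 3.52 ± 0.328 and 4.36 ± 0.263 FPKM (SD, n = 3). The log2 fold change was 0.30 with an SE of 0.09 (limma adjusted p = 0.0186). This call was the least stable of the members. It was lost without CTR replicate 1 (0.25, adjusted p = 0.0506), CTR replicate 3 (0.29, adjusted p = 0.0531), miR-8485 replicate 1 (0.27, adjusted p = 0.0634) or miR-8485 replicate 2 (0.29, adjusted p = 0.0577), and also without the filter (adjusted p = 0.0522). It was lost too in TPM (0.19, adjusted p = 0.0639) and with the GC trend removed (0.17, adjusted p = 0.138).

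GSK3B, a kinase that phosphorylates β-catenin, occupies chr3:119821323-120094417, minus strand. CTR libraries had 7.13, 7.69 and 7.66 FPKM, from 1048 to 1134 fragments, and miR-8485 libraries 5.47, 6.14 and 6.41 FPKM, from 801 to 995 fragments. All 3 miR-8485 libraries lay below the lowest CTR library. The level fell by 19.7% (log2 fold change -0.32, SE 0.07, limma adjusted p = 0.0071), and the call held in all 17 alternatives, with values between -0.43 and -0.22. GSK3A, its paralog with the same substrate motif, was higher, at 23.3, 21.7 and 25.7 FPKM in CTR and 21.4, 21.3 and 19.5 FPKM in miR-8485. Its highest miR-8485 library lay just below its lowest CTR library. The log2 fold change of GSK3A was -0.18, with a 95% interval of -0.35 to -0.01 and an adjusted p of 0.0644 in limma. It passed the threshold without CTR replicate 2 (-0.24, adjusted p = 0.0287), in TPM (-0.30, adjusted p = 0.0099), with the GC trend removed (-0.28, adjusted p = 0.0113), in voom (-0.17, adjusted p = 0.0267) and among genes of at least 5 FPKM (adjusted p = 0.0460).

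APC, the large scaffold that is mutated in most colorectal carcinomas, was the lowest of the tested members. Its libraries had 2.44, 2.49 and 2.31 FPKM in CTR and 2.08, 1.96 and 2.43 FPKM in miR-8485. The first and second miR-8485 libraries lay below all CTR libraries and the third lay among them. The log2 fold change of -0.16 (95% interval -0.41 to 0.09) was not past the threshold (limma adjusted p = 0.22), nor was it in any of 16 alternatives.

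CTNNB1, at chr3:41194741-41260096, plus strand, had the highest level of the members. CTR libraries had 34.6, 34.9 and 34.6 FPKM, and miR-8485 libraries 30.02, 30.5 and 30.3 FPKM. The groups were far apart relative to their SDs of 0.203 and 0.228 FPKM (n = 3), although the fall was only 12.7%. The log2 fold change was -0.20 with an SE of 0.04 (limma adjusted p = 0.0029). Of its 17 alternatives, 1 ended the call. With the trend against gene length removed from each library, the value was -0.06 (adjusted p = 0.226). CTNNB1 has a counted length of 11927 bases, longer than that of any other member but APC.

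The 2 tested TCF factors among the members, which bind DNA and recruit β-catenin, moved in opposite directions. TCF7, which also gives rise to short forms without the β-catenin binding part, had 3.44, 4.13 and 3.99 FPKM in CTR and 2.79, 3.12 and 3.10 FPKM in miR-8485. All miR-8485 libraries lay below all CTR libraries. It fell by 21.3%, a log2 fold change of -0.35 with an SE of 0.09 (limma adjusted p = 0.0134), and was called in all 16 of its alternatives. TCF7L2, the main TCF factor of the intestinal epithelium, had 16.7, 17.3 and 17.8 FPKM in CTR and 18.8, 20.8 and 19.3 FPKM in miR-8485. Every miR-8485 library was above every CTR library, with a rise of 13.8%. Its log2 fold change was 0.19 with an SE of 0.05 (limma adjusted p = 0.0197). Without miR-8485 replicate 2 it was 0.14 (adjusted p = 0.0667), and in TPM it was 0.07 (adjusted p = 0.343).

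LEF1, a TCF/LEF factor of lymphoid and other cells, was represented by 1 fragment in CTR replicate 2 and 0 fragments in the other 5 libraries. A count of 0 allows up to 3 fragments, which is 0.029 to 0.031 FPKM in these libraries and covers counting error only. No fold change can be given at this depth.

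**Figure D2:**
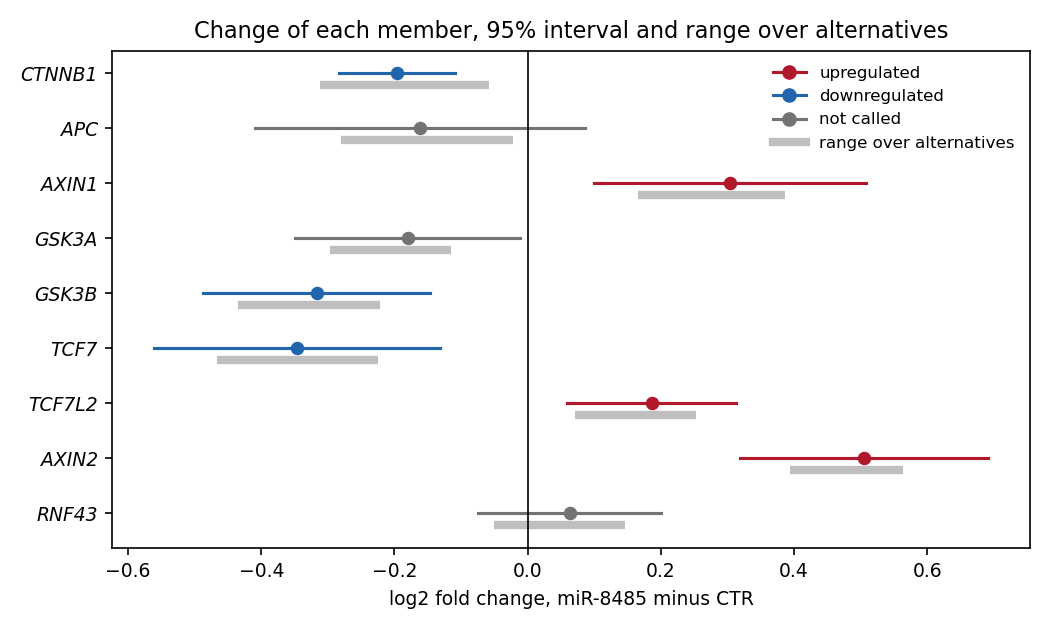
Log2 fold change of each tested member, miR-8485 minus CTR, with its 95% interval in limma (colored line) and the range of its value over the alternatives (grey bar). AXIN2 lies farthest above 0 at 0.50 and TCF7 and GSK3B farthest below at -0.35 and -0.32. Only the grey bar of RNF43 crosses 0.

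Rescaling to TPM shifted all genes, with a median of -0.12 on the log2 scale, so the members were also read against that median. Measured from it, the TPM values were 0.51 for AXIN2, 0.31 for AXIN1, 0.19 for TCF7L2, -0.32 for GSK3B, -0.35 for TCF7 and -0.19 for CTNNB1. These lie within 0.01 of the values from FPKM, relative to its own median.

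The order of the levels, which also depends on the counted length of each gene, was the same in both groups at the top and bottom. It changed in between. In CTR it ran from CTNNB1 over GSK3A, TCF7L2, GSK3B, RNF43, AXIN2, TCF7, AXIN1 and APC to LEF1. The ranges of the 3 libraries overlapped for the neighbors RNF43 and AXIN2, and for TCF7 and AXIN1. In miR-8485, AXIN2 ranked directly below TCF7L2 and above RNF43 and GSK3B, with no overlap between these neighbors. AXIN1 ranked above TCF7, also with no overlap. GSK3A and TCF7L2, which were separate in CTR, overlapped in miR-8485.

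Paralogs of the set were compared directly through the difference of their log2(FPKM + 0.1) values within each library. Over the 4 pairs computed, the exact two-sided permutation test cannot go below p = 0.1 with 3 libraries against 3. TCF7L2 exceeded TCF7 by 2.25, 2.04 and 2.13 in CTR and by 2.71, 2.70 and 2.60 in miR-8485. The groups did not overlap and the shift of 0.53 (exact permutation p = 0.1, adjusted p = 0.133) was several times the SDs of 0.10 and 0.06. In ratios of FPKM plus 0.1, this is 4.402 in CTR against 6.37 in miR-8485, and the size of each ratio also depends on the counted lengths. AXIN2 exceeded AXIN1 by 0.82 ± 0.06 in CTR and by 1.02 ± 0.14 in miR-8485 (SD, n = 3), with no overlap (exact permutation p = 0.1, adjusted p = 0.133). This shift of 0.20 was 0.31 with the GC trend removed and 0.12 without miR-8485 replicate 3. GSK3B and GSK3A did not separate in this way. Their difference was -1.64 ± 0.13 in CTR and -1.77 ± 0.18 in miR-8485 (SD, n = 3), and the groups overlapped (exact permutation p = 0.4). The shift of -0.14 became 0.044 with the GC trend removed and -0.0451 with the length trend removed, and was -0.06 without CTR replicate 2 and -0.049 without miR-8485 replicate 1. A difference between the responses of GSK3B and GSK3A was thus not shown, although only GSK3B was called. The remaining pair, LEF1 and TCF7, carries only the change of TCF7, because LEF1 was at the detection limit.

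**Figure D3:**
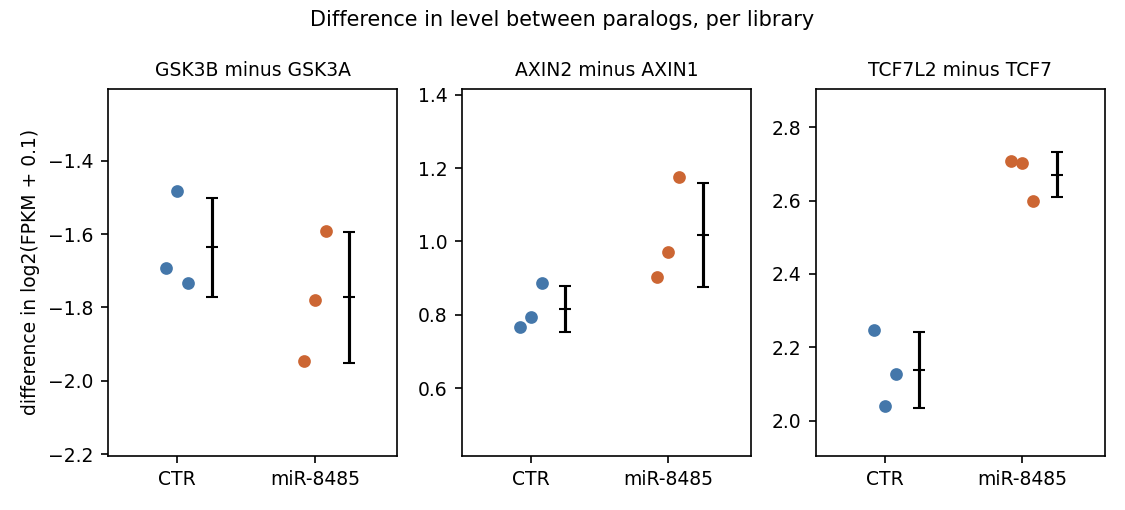
Difference in log2(FPKM + 0.1) between paralogs in each library. Points are the 3 libraries of each group and bars show mean and SD. The 3 panels span the same height of 1 log2 unit around different centers. CTR and miR-8485 are separate for TCF7L2 minus TCF7, with a shift of 0.53, and for AXIN2 minus AXIN1, with 0.20, and overlap for GSK3B minus GSK3A.

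The genes whose profile over the 6 libraries was closest to GSK3B and AXIN2 were sought among 10720 protein-coding tested genes. The measure was the Euclidean distance between log2(FPKM + 0.1) values, each taken as the distance from its CTR mean. Closest to GSK3B were ZSWIM8 (distance 0.044), TJP1 (0.058) and GREB1L (0.069), with log2 fold changes of -0.30, -0.32 and -0.29. Of these, GREB1L was not past the threshold (limma adjusted p = 0.0975). Closest to AXIN2 were ATP13A1 (distance 0.053), ZNF525 (0.093) and FZD2 (0.0997), which rose with log2 fold changes of 0.48, 0.53 and 0.51. FZD2 encodes a Frizzled receptor. With most genes changed between the groups, this likeness rests on 6 libraries and mainly on the step between the groups.

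Around the members, 104 other genes of the pathway were listed by role, of which 71 were tested. In miR-8485, 12 of these were upregulated and 31 downregulated, together 60.6%. Of all tested genes, 59.6% were called, 29.1% upwards and 30.5% downwards. The share called by role was 50% for ligands, 61.5% for receptors, 80% for transducers and 55.6% for destruction complex partners. It was 50% for nuclear cofactors, 33.3% for inhibitors and 83.3% for further targets. The median log2 fold change of the 71 genes was -0.18, and -0.10 with the length trend removed. Downregulated genes made up more of this list than upregulated ones under each of the scalings that were run. The split was 17 up and 31 down with the length trend removed, 14 up and 34 down with the GC trend removed and 9 up and 35 down in TPM. In TPM the calls over all tested genes were also mostly downward, with 2613 up and 4725 down. Several of these genes changed more than any of the 9 tested members.

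Among ligands and the genes for their secretion, 10 of 21 were tested, and 5 fell while none rose. WNT16 was the most abundant ligand gene, with 27.7 ± 0.788 FPKM in CTR and 21.8 ± 1.30 FPKM in miR-8485 (SD, n = 3). PORCN, which encodes the acyltransferase that lipidates WNT proteins, fell from 4.41 ± 0.269 to 1.13 ± 0.148 FPKM (SD, n = 3), with a fitted log2 value of -1.87 (limma adjusted p = 1.4e-05). WNT9A fell from 7.13 to 2.28 FPKM, with a fitted log2 value of -1.602. The others that fell were WNT11 with -1.25 and WNT7B with -0.75. WLS, the carrier of WNT proteins to the cell surface, had -0.12 (95% interval -0.29 to 0.05).

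Of 18 receptor genes, 13 were tested, 7 fell and 1 rose. FZD5 fell from 3.99, 3.93 and 4.003 FPKM in CTR to 0.871, 0.841 and 0.853 FPKM in miR-8485. This fall, with a log2 fold change of -2.09 (limma adjusted p = 4.95e-06), was the largest of the receptors. FZD6, the most abundant receptor gene, fell from 17.1 to 13.6 FPKM, and ROR2 from 5.69 to 3.56 FPKM. FZD2 was the receptor gene that rose, from 8.41 ± 1.13 to 11.9 ± 0.581 FPKM (SD, n = 3). LRP5, one of the co-receptors needed by the canonical pathway, fell by 0.22 on the log2 scale, while LRP6 had -0.14 (95% interval -0.37 to 0.08).

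Of the 10 cytoplasmic transducers, all tested, 5 rose and 3 fell. FRAT2 and FRAT1 encode proteins that bind GSK3 and keep it from AXIN. FRAT2 had 4.41, 3.12 and 3.12 FPKM in CTR and 12.1, 12.3 and 12.8 FPKM in miR-8485, so the groups were far apart. Its log2 fold change was 1.80 with an SE of 0.13 (limma adjusted p = 2.8e-05). FRAT1 rose from 0.850 ± 0.157 to 1.85 ± 0.474 FPKM (SD, n = 3). The casein kinase genes CSNK1E, CSNK1G3 and CSNK1G2 rose by smaller amounts, with log2 fold changes of 0.25, 0.24 and 0.19. The calls of CSNK1E and CSNK1G2 were unstable, while that of CSNK1G3 was lost in TPM only. In TPM the calls of all 3 were lost, and this role then had 2 up and 3 down. CSNK1G2 was also not called with the GC trend removed (0.015, limma adjusted p = 0.80), nor without CTR replicate 3 (0.15), miR-8485 replicate 1 (0.18) or miR-8485 replicate 3 (0.16). CSNK1E was not called without CTR replicate 2 (0.20) or miR-8485 replicate 1 (0.22). The genes that fell were DVL1, DVL3 and CSNK1G1. DVL1, the most abundant of this role and one of the Dishevelled genes, which act between receptor and destruction complex, fell from 51.8 ± 3.59 to 39.8 ± 2.28 FPKM (SD, n = 3).

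Of the partners of the destruction complex, 9 of 11 were tested, 5 fell and none rose, although 2 were called up with the length trend removed and 2 with the GC trend removed. FBXW11 and BTRC encode the paralogous F-box proteins that recognize phosphorylated β-catenin, and CUL1 the scaffold of their ubiquitin ligase. FBXW11 fell from 14.6 ± 0.873 to 8.22 ± 0.232 FPKM (SD, n = 3), with a fitted log2 value of -0.82 (limma adjusted p = 2.7e-05). CUL1 fell by 0.40 and BTRC by 0.30 on the log2 scale, while SKP1, a further subunit of this ligase, had a 95% interval of -0.16 to 0.16. TNKS, whose product tankyrase marks AXIN for degradation, fell by 0.54 on the log2 scale, and its paralog TNKS2 had 0.06. PPP2R5A, a regulatory subunit of protein phosphatase PP2A, fell by 0.24, a call that was lost without CTR replicate 3 (-0.22, limma adjusted p = 0.0523). CSNK1A1, the kinase that primes β-catenin for GSK3, had 0.06 (95% interval -0.06 to 0.19).

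Among nuclear cofactors, 4 rose, 3 fell and 7 of 14 tested were not called. The 4 that rose were AES with a log2 fold change of 0.75, PYGO2 with 0.55, CTNNBIP1 with 0.33 and TLE1 with 0.31. AES, now named TLE5, rose from 23.3 ± 1.27 to 39.3 ± 0.612 FPKM (SD, n = 3). AES and TLE1 belong to the Groucho/TLE family, and TLE1 is a corepressor of TCF factors. CTNNBIP1 blocks the contact of β-catenin with TCF, and PYGO2 is a coactivator. EP300 and CREBBP encode the histone acetyltransferases that β-catenin recruits. EP300 fell from 3.96 ± 0.624 to 1.75 ± 0.0783 FPKM (SD, n = 3) and CREBBP from 3.92 ± 0.331 to 2.62 ± 0.066 FPKM (SD, n = 3). CTBP2, a corepressor, fell by 0.23 on the log2 scale, but with the length trend removed its value was -0.098 (limma adjusted p = 0.105).

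Of 16 inhibitor genes, only 6 were tested, and DKK1 and NOTUM were those that fell. DKK1, a secreted antagonist of LRP receptors, was abundant, with 89.1 ± 3.86 FPKM in CTR and 77.2 ± 3.46 FPKM in miR-8485 (SD, n = 3). NOTUM, an enzyme that removes the lipid of WNT proteins, fell by 0.26 on the log2 scale (limma adjusted p = 0.0291). Its call was lost without the filter (adjusted p = 0.0784), without CTR replicate 2 (-0.17, adjusted p = 0.0648) and without miR-8485 replicate 1 (adjusted p = 0.0744) or 2 (adjusted p = 0.0822). ZNRF3, the paralog of RNF43, had -0.02 (95% interval -0.21 to 0.16).

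Of 17 listed further targets of β-catenin and TCF, 12 were tested, of which 8 fell and 2 rose. CCND1, which encodes cyclin D1, fell from 209, 216 and 223 FPKM in CTR to 25.0, 21.8 and 24.3 FPKM in miR-8485. Its log2 fold change of -3.18 with an SE of 0.06 (limma adjusted p = 4.1e-07) was the largest among the 71 tested genes of the list. EPHB3, a receptor of crypt cells, fell from 6.42 to 2.14 FPKM, and BMP4, SOX9, EPHB2 and CD44 fell by 0.94, 0.64, 0.60 and 0.55 on the log2 scale. DKK1 and NOTUM, described above, complete the genes that fell. The 2 that rose were JUN with a log2 fold change of 0.73 and MYC with 0.27. Many of these genes also have regulators outside the WNT pathway. ASCL2 and LGR5, markers of intestinal stem cells that respond to WNT, had at most 1 and 4 fragments in any library. The median of the role was -0.41, while the feedback targets AXIN2 and RNF43 among the members had 0.50 and 0.06. The listed targets that are also inhibitors did not rise. DKK1 had -0.21, NOTUM -0.26 and ZNRF3 -0.02. NKD1 was below the filter, with means of 1.07 FPKM in CTR and 0.690 FPKM in miR-8485.

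**Figure D4:**
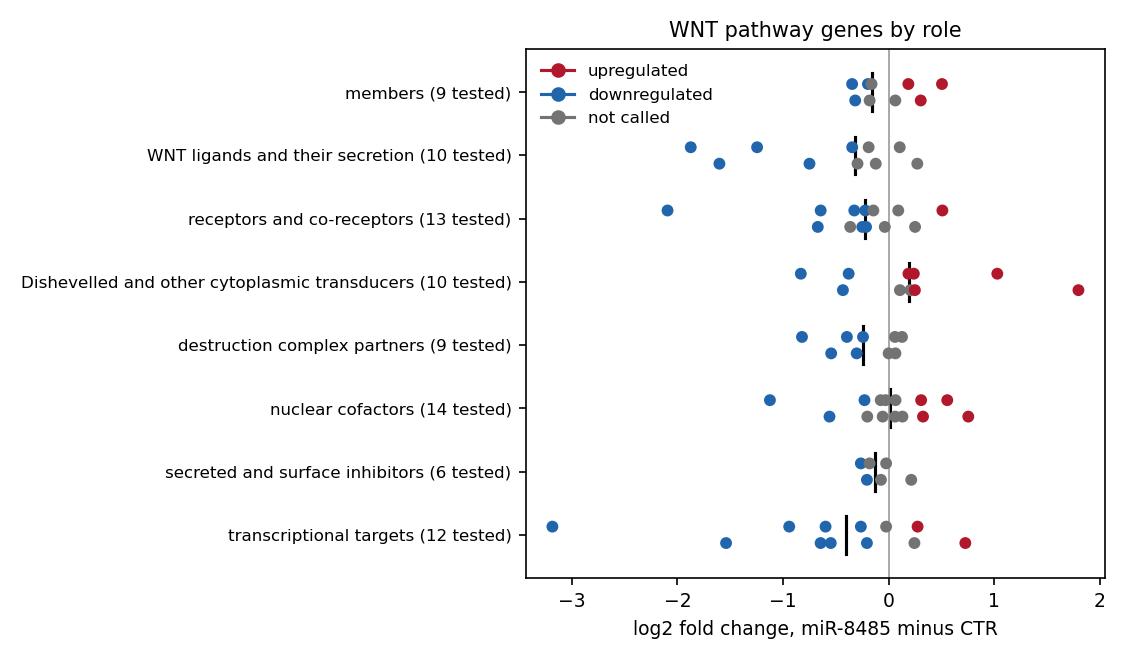
Log2 fold change, miR-8485 minus CTR, of the 9 tested members (top row) and the 71 other tested genes of the pathway by role. Each point is 1 gene, colored by its call in limma, and black bars are medians. DKK1, NOTUM and ZNRF3 appear under both inhibitors and targets. The members span -0.35 to 0.50, while the other genes span -3.18 for CCND1 to 1.80 for FRAT2.

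Copies of TGTGTGT were also counted in the canonical 3′ UTRs of the 18 other genes chosen by the naming rule, which had been picked for level or change. WNT9A held 24 copies, EPHB3 11, FBXW11 and DKK1 5 each, FZD5 3, EP300 and CCND1 2 each and WNT16 1, and the other 10 held 0. All of those with a copy fell. Of those without a copy, PORCN, FZD6, ROR2, DVL1, CUL1, TNKS and NOTUM fell, and FRAT1, FRAT2 and AES rose. Over all tested genes with an annotated 3′ UTR, 28.9% held at least 1 copy. A link between copies and direction was not tested. A match of letters is a description and not evidence of binding.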

How the data were processed

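RNA-seq was carried out on 6 libraries of HCT116 cells, 3 CTR and 3 miR-8485. The authors trimmed reads with fastp 0.23.1, mapped them to hg38 with HISAT2 2.0.5 and counted fragments per gene with featureCounts 1.5.0-p3. The annotation release was not given in the sources used here. The values deposited by the authors are FPKM, not scaled further between libraries. In every library, 100% of values above 0 were whole multiples of 1 fragment within a tolerance of 0.01 (or 1e-05 of the count, if larger), so fragments were recovered. Columns without a sample numbered 0.

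Genes with a mean of at least 1 FPKM were compared on the scale log2(FPKM + 0.1) by two-sided limma-trend tests (limma 3.58.1, R 4.3.3), Benjamini-Hochberg adjusted over 12349 genes. The scripts were tested on simulated data. Python 3.11.15 with scipy 1.17.1 was used for the exact permutation tests. The added 0.1 shrinks fold changes of weakly expressed genes. 3′ UTRs came from GENCODE release 44 on GRCh38, the build of the coordinates in the table.

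The members and lists were chosen with earlier results of these data known. Other genes were named by rule, in each role the most abundant and the 2 with the largest change among called genes without overlap between groups. Further genes were named after their values were seen. The alternatives were pseudocounts of 1 and 0.01, no filter, a filter at 5 FPKM, median-of-ratios scaling, TPM, correction for a length or GC trend within each library (loess, span 0.3), no variance trend, a replicate block, voom on recovered fragments, and each library left out. For the paralog pairs, the length, GC and left-out-library alternatives were chosen after seeing the data. The methods of the study call the replicates independent and biological.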

Additional observations from a re-analysis of the deposited data

How the results depend on the processing

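Of 68 counts of called genes recomputed under the alternatives, 65 stayed within 1.5 times the reported one. The number of upregulated members went from 3 to 1 in TPM and to 1 without miR-8485 replicate 2, and ranged from 1 to 3 with each library left out. The number of downregulated genes among the other pathway genes went from 31 to 18 among genes of at least 5 FPKM, where only 46 were tested. Of 150 values for the members, 134 kept direction and call, 10 lost the call, 5 gained it (all for GSK3A) and 1 changed sign, which was RNF43 in TPM (-0.051). Of 717 values for 43 other called genes, 20 lost the call and none changed sign. The losses were for NOTUM, FZD7, RYK, CSNK1E, CSNK1G2, CSNK1G3, PPP2R5A and CTBP2. GSK3B, TCF7 and AXIN2 kept their calls in every alternative that was run.

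The replicate numbers are shared between groups, but same-numbered libraries did not deviate together over the tested genes (correlations of 0.067, 0.034 and -0.064), so no pairing was used. With the replicate block, 3 members were upregulated and 3 downregulated, and no member changed its call. Of 40 values for the shifts between paralogs, 24 of them from alternatives chosen after seeing the data, 1 changed sign, which was GSK3B minus GSK3A with the GC trend removed (0.044). LEF1 minus TCF7 fell from 0.30 to 0.01 with a pseudocount of 0.01, where the pseudocount sets the value of LEF1. Depth limits LEF1 most, and for APC, at 441 to 575 fragments, a fall by 0.41 on the log2 scale remains within its interval. With 3 libraries in each group, the precision of small changes is limited.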
